A study of Mus musculus with 7 samples.

Results

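Granulosa cells make progesterone and the precursors of other steroids from cholesterol, which they can draw from an ester store as well as from new synthesis. The genes described here are 10 genes of that store and of cholesterol efflux: Abca1, Abcg1, Soat1, Lipe, Lipa, Npc1, Npc2, Stard3, Plin2 and Plin3. They were taken by symbol for their known roles, with earlier results of these data known. All 10 were found among the 55228 rows of the count table, and all 10 passed the filter on low counts. The libraries were RNA-seq libraries of untreated primary granulosa cells from ovaries of C57BL/6J mice. The wild-type (WT) group held 4 libraries and the group labelled Fhl2 KO held 3. Neither the age of the mice, the number of animals behind a library nor the nature of the Fhl2 allele was given in the labels. Total counts per library ran from 38855596 to 50514556.

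Cholesterol taken up as lipoprotein ester is freed in the lysosome by the acid lipase LIPA and handed on by NPC2 and NPC1, and STARD3 tethers late endosomes to the endoplasmic reticulum and carries sterol between them. Surplus cholesterol is esterified by SOAT1 and kept in lipid droplets, whose surface carries perilipins such as PLIN2 and PLIN3. Hormone-sensitive lipase, the product of Lipe, frees it again for steroid synthesis, while the transporters ABCA1 and ABCG1 export it to apolipoprotein A-I and high-density lipoprotein. In steroid-making cells this store is known as a source of substrate for CYP11A1.

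Fhl2 had 54.1% of its WT level in the KO libraries and was lower in each of them than in any WT library, so the order of the groups fitted the labels while reads of the gene remained. Inha and Inhba, subunits of inhibin and activin made by granulosa cells, were the most abundant of 12 granulosa markers. Cyp19a1, the aromatase gene, had 0 counts in each WT library and 8, 17 and 6 counts in KO libraries 1 to 3. Levels also depended on transcript length in a way that differed between the groups. Relative to the mean of the libraries, log2 CPM, the count scaled to library depth with TMM factors, changed by 0.0581 to 0.0855 per doubling of length in the WT libraries, and by -0.0016, -0.170 and -0.133 in KO libraries 1, 2 and 3. The labels name no batch, so this trend and the genotype cannot be told apart. Values from a fit that removes each library's trend on transcript length and GC content are given beside the uncorrected ones and called corrected.

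In the Fhl2 KO libraries, the ester-forming enzyme gene Soat1, the lysosomal carrier gene Npc2 and the droplet coat genes Plin2 and Plin3 were higher, by 1.29-fold to 1.34-fold. Abca1, the efflux transporter gene, was 1.42-fold lower. Abcg1, Lipe, Lipa, Npc1 and Stard3 did not pass the test. Thus 4 of the 10 genes rose and 1 fell with edgeR at an adjusted p of 0.05 over all genes, where 29.0% of the 15798 genes tested passed in either direction, 13.5% higher and 15.6% lower. The median log2 fold change (KO over WT) was 0.23 over the 10 genes and -0.00018 over all genes tested. After the correction 5 of the 10 rose and none fell, where 23.6% of all genes passed, 12.6% higher and 11.0% lower. With KO library 1 alone against WT, Soat1 was the one gene of the 10 that passed, where 4.60% of all genes did, 1.63% higher and 2.97% lower. In that comparison the KO arm is 1 library, so the spread comes from the WT libraries alone, the KO library is assumed to vary like them, and a lost call may come from the smaller number of libraries. The KO and WT libraries did not overlap for 4 of the 10 genes on the higher side and for 2, Abca1 and Abcg1, on the lower side, where 16.4% and 17.7% of all genes did not overlap.

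**Figure D1:**
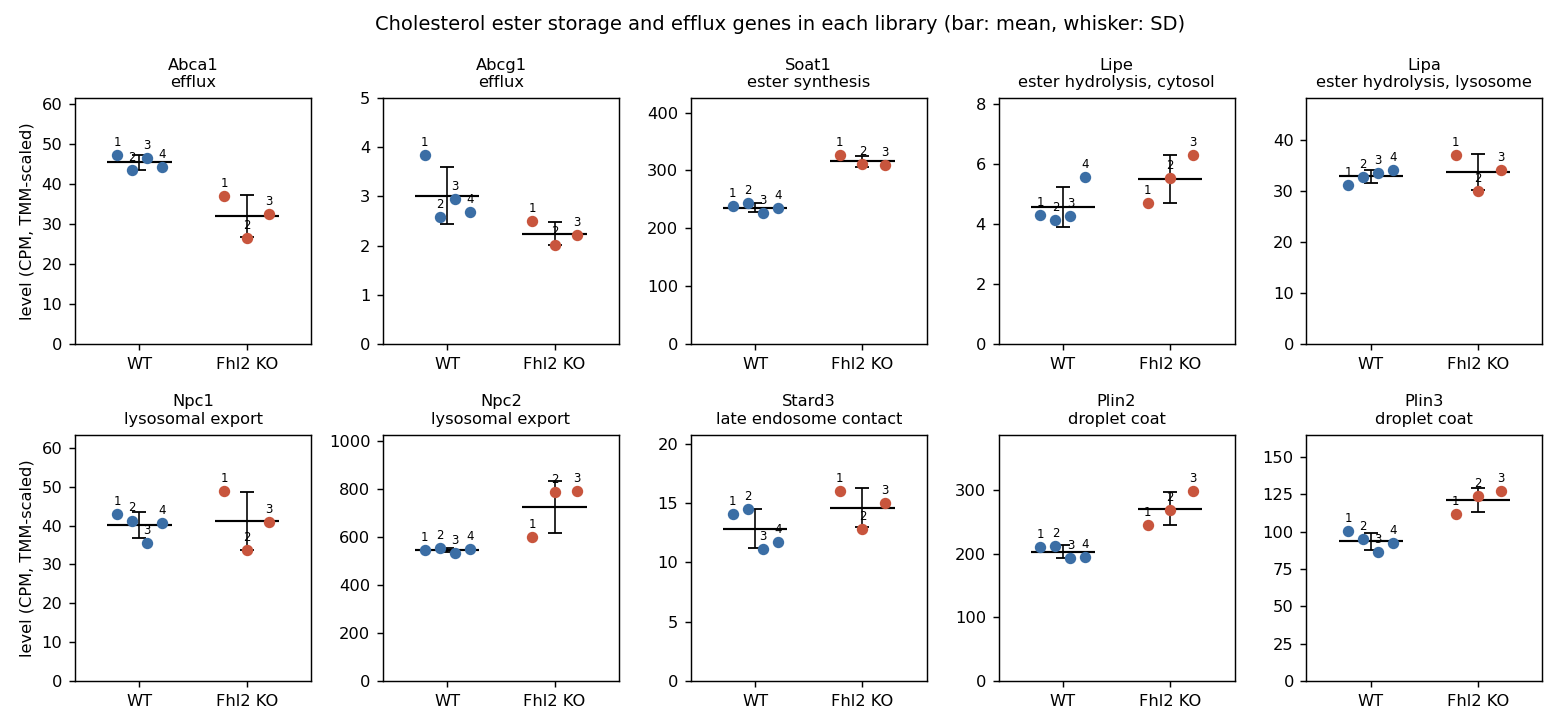
Level of each gene in CPM (scaled by TMM) in the 4 WT libraries (blue) and the 3 Fhl2 KO libraries (red), numbered by library, with the mean (bar) and SD (whisker). The KO points of Soat1, Npc2, Plin2 and Plin3 lie above and those of Abca1 and Abcg1 below the WT points, and the groups overlap for the other genes.

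The windows of 250 bases before the annotated start of the 5 genes that passed the test are shown here. They are from the RefSeq table of build GRCm38.p6, which is the mm10 assembly, and read 5′ to 3′ along the gene. Capitals mark matches, on either strand, to the E-box letters CACGTG, the CCAAT box, the TATA box letters TATAAA and the GC box letters GGGGCGGGG.
Abca1, chr4:53159896-53160145, strand minus: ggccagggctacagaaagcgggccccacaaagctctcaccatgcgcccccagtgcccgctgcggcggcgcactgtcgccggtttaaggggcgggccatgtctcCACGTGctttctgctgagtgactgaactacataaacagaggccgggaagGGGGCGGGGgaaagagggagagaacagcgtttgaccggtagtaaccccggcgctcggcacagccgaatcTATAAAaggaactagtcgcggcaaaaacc
Soat1, chr1:156474329-156474578, strand minus: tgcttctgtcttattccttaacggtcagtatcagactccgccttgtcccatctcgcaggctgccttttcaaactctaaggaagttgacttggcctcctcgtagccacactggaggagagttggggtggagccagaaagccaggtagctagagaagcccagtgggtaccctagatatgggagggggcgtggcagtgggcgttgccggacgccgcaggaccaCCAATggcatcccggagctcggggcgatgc
Npc2, chr12:84773113-84773362, strand minus: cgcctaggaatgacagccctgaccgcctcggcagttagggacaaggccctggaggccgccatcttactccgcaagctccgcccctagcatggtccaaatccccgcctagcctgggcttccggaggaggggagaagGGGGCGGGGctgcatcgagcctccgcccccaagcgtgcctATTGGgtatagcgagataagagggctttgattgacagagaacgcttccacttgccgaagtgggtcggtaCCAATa
Plin2, chr4:86670060-86670309, strand minus: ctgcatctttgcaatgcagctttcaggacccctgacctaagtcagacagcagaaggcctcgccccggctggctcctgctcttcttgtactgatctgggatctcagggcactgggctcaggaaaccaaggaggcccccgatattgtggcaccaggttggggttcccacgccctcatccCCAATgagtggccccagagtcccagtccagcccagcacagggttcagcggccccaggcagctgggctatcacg
Plin3, chr17:56290512-56290761, strand minus: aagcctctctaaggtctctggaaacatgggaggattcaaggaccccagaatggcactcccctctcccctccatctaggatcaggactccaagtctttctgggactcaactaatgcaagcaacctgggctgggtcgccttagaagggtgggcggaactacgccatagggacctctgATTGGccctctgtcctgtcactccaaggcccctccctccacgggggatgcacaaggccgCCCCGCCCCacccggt
Of 32851 windows of this length in the table, 6.02% hold the E-box, 33.8% the CCAAT box, 12.4% the TATA box letters and 10.4% the GC box. The Abca1 window held all of these but the CCAAT box, with the TATA box letters from 29 to 24 bases before the start. The CCAAT box letters were in the windows of 6 of the 8 genes that the table holds, Soat1, Npc2, Plin2, Plin3, Lipa and Stard3, of which Lipa and Stard3 did not pass the test. The E-box was also in a window of Lipe (chr7:25395988-25396237), but not in that of its other listed start (chr7:25390113-25390362). The TATA box letters were also in the window of Lipa. None of the matches overlapped another. Matches to AAGGTCA, the half-site of orphan nuclear receptors (4.08% of windows), and to TGACGTCA, the cAMP element (1.55%), were in no window of these 8 genes. Such matches describe letters only, and Npc1 and Abcg1 were not examined in this way. The GENCODE M21 annotation, used here for lengths and gene spans, can place a start elsewhere. In it Plin3 reaches to base 56292873, so its window lies inside that span. Npc2 reaches to base 84773152, so its window lies partly inside.

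The efflux genes were the lowest relative to WT. Abca1, whose product loads cholesterol onto lipid-poor apolipoprotein A-I, stood at 47.2, 43.5, 46.5 and 44.1 CPM in WT libraries 1 to 4 and at 36.9, 26.4 and 32.5 CPM in KO libraries 1 to 3. Every KO library was thus below every WT library, with KO library 2 the lowest. WT averaged 45.3 ± 1.81 CPM (SD, n = 4) against 31.9 ± 5.28 CPM for KO (SD, n = 3), a log2 fold change of -0.51 (SE 0.109, edgeR adjusted p = 0.00346). Abca1 has the longest annotated transcript of the 10 genes, 10262 bases, and the median change over the tenth of genes with the longest transcripts was -0.38. Corrected, its change was -0.04 (edgeR adjusted p = 0.715), and for KO library 1 alone it was -0.30 (edgeR adjusted p = 0.132). Of the 19 alternatives, the fall of Abca1 was past the threshold in 15, and not under the 3 corrections or for KO library 1 alone. The gene spans chromosome 4 from 53030787 to 53159895 on the minus strand (mm10).

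Abcg1, a transporter that passes cholesterol to mature high-density lipoprotein, was the least abundant of the 10. It had 3.85, 2.59, 2.95 and 2.68 CPM in the WT libraries and 2.50, 2.02 and 2.22 CPM in the KO libraries. The groups did not overlap, though the lowest WT library and the highest KO library differed by little. Its change of -0.42 on the log2 scale (95% interval -0.84 to -0.0028) did not pass after adjustment (edgeR adjusted p = 0.120), and was -0.19 when corrected. Without WT library 1, which held the highest level, the change was -0.27.

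Soat1, the acyltransferase of the endoplasmic reticulum that turns free cholesterol into ester, rose under each of the 19 alternative settings. It stood at 238.8, 243.3, 225.9 and 234.9 CPM in WT libraries 1 to 4 and at 327.2, 311.6 and 308.9 CPM in KO libraries 1 to 3. The lowest KO library lay well above the highest WT library, and KO library 1 was the highest. WT averaged 235.7 ± 7.41 CPM (SD, n = 4) against 315.9 ± 9.87 CPM for KO (SD, n = 3), a 1.34-fold rise (log2 0.42, SE 0.0824, edgeR adjusted p = 0.0019). Soat1 is annotated with a long transcript of 8371 bases and a short one of 2925 bases, and gene-level counts cannot separate them. With the long one the corrected change was 0.83 (edgeR adjusted p = 8.43e-06), and with the short one 0.51 (edgeR adjusted p = 0.000234). KO library 1 alone gave 0.47 (edgeR adjusted p = 0.0011). It occupies bases 156424525 to 156474331 of chromosome 1 (minus strand).

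**Figure D2:**
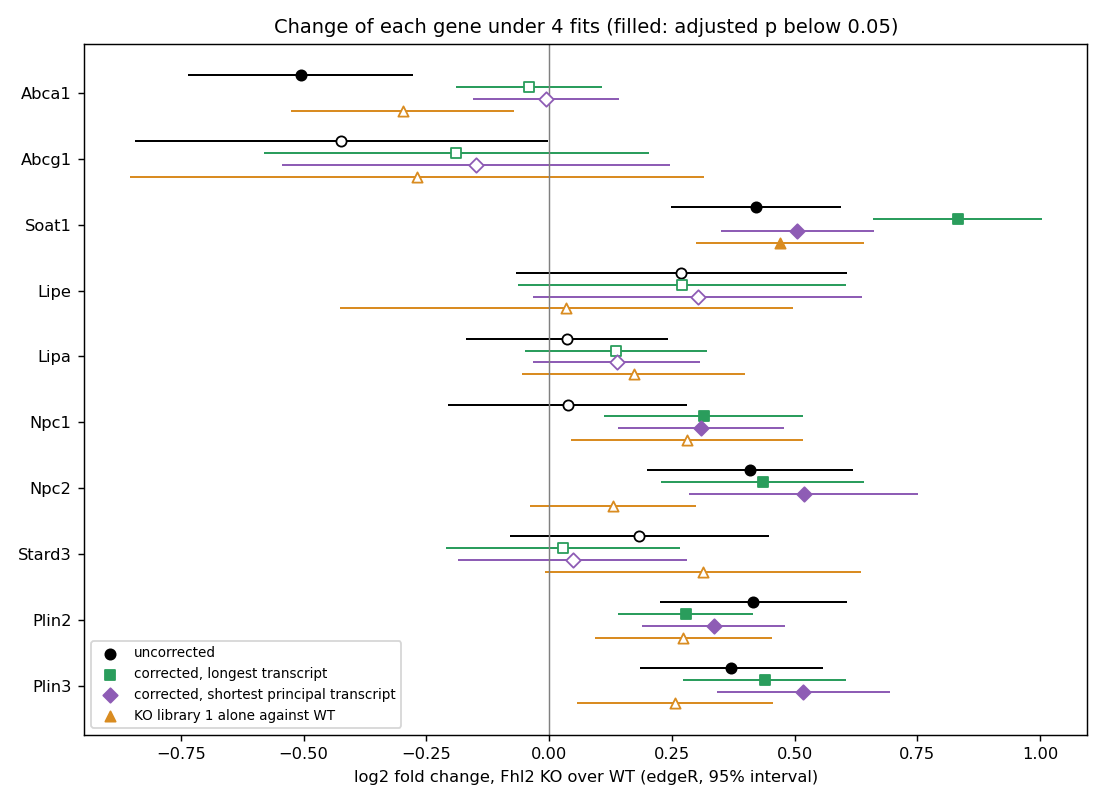
Log2 fold change of each gene, Fhl2 KO over WT, with its 95% interval in 4 edgeR fits: uncorrected, corrected for length and GC content of the longest transcript, corrected with the shortest principal transcript, and KO library 1 alone against the 4 WT libraries. Soat1 is filled, that is past adjusted p 0.05, in all 4 fits, whereas Abca1 moves from -0.51 to -0.04 and -0.0064 with the corrections and Npc1 moves from 0.04 to 0.31.

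The lipases that free cholesterol from its ester did not pass the test. Lipe, the lipase of the cytosol that acts on droplet esters, had 4.31, 4.14, 4.28 and 5.57 CPM in WT and 4.69, 5.52 and 6.30 CPM in KO. The groups overlapped through WT library 4. The change of 0.27 (95% interval -0.07 to 0.61, edgeR adjusted p = 0.220) had an upper bound above the change of Soat1. Exons of Lipe share 918 bases, 15.6% of their length, with an antisense gene, 4732471J01Rik, which had 2 to 21 counts per library. Lipa, the acid lipase of the lysosome, stood at 31.1, 32.8, 33.5 and 34.2 CPM in WT and 37.1, 30.0 and 34.1 CPM in KO. Its KO libraries lay on both sides of the WT values, and the 95% interval of the log2 change ran from -0.17 to 0.24.

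Of the genes of lysosomal export, Npc2 rose and Npc1 did not pass in the uncorrected fit. NPC2, a small soluble protein of the lysosome, hands cholesterol to the membrane protein NPC1. Npc2 was the most abundant of the 10 genes, at 545.8, 553.4, 531.9 and 548.8 CPM in WT libraries 1 to 4 and at 597.3, 785.6 and 788.2 CPM in KO libraries 1 to 3. The WT libraries lay close together, while KO library 1 lay nearer to them than to the other KO libraries. The log2 fold change was 0.41 (SE 0.1001, edgeR adjusted p = 0.00716) and the corrected one 0.43 (edgeR adjusted p = 0.00554). For KO library 1 alone it was 0.13 (edgeR adjusted p = 0.430), and the call was also lost without KO library 3 (0.34, edgeR adjusted p = 0.0601).

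Npc1, unlike Npc2, was highest in KO library 1 among the KO libraries, with 48.8, 33.8 and 41.0 CPM against 43.1, 41.3, 35.4 and 40.7 CPM in WT. KO library 1 was the highest and KO library 2 the lowest of all 7. The uncorrected change was 0.04 (95% interval -0.21 to 0.28, edgeR adjusted p = 0.840), and the corrected change was 0.31 (edgeR adjusted p = 0.0274), past the threshold. With the shortest principal transcript it was 0.31 as well (edgeR adjusted p = 0.0114), and with length alone 0.28 (edgeR adjusted p = 0.0502). Of the exons of Npc1, 4.52% overlap those of Rmc1 on the other strand, a gene with 712 to 1135 counts per library. Stard3 had 14.0, 14.5, 11.1 and 11.7 CPM in WT and 16.0, 12.8 and 15.02 CPM in KO, with overlapping groups. Its change of 0.18 (95% interval -0.08 to 0.45, edgeR adjusted p = 0.288) was 0.03 when corrected.

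**Figure D3:**
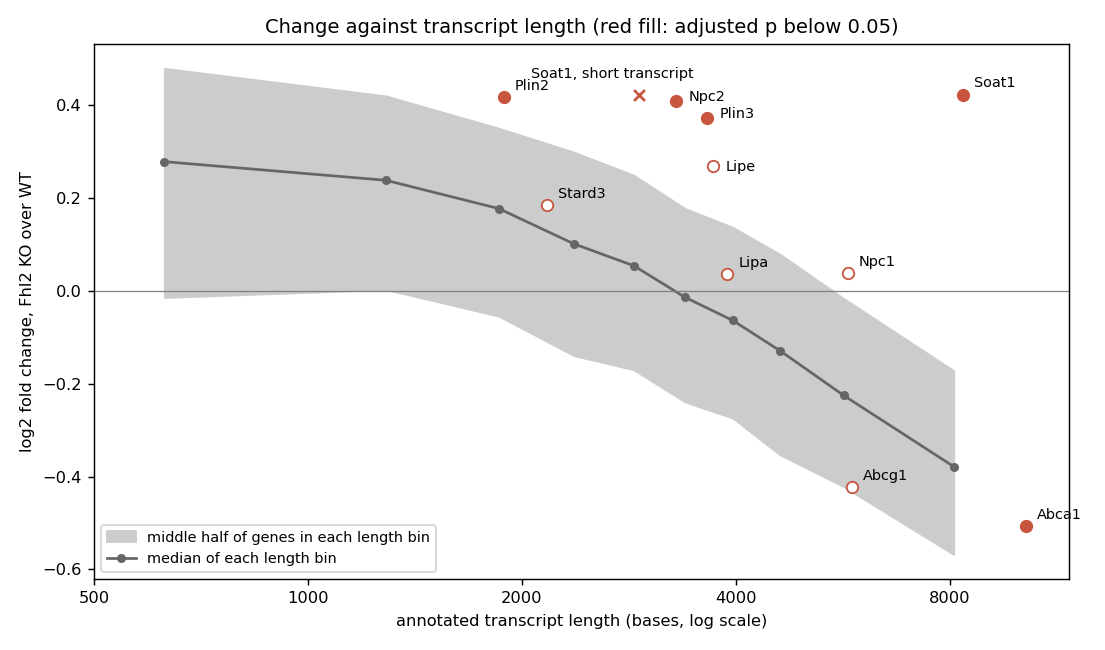
Log2 fold change, Fhl2 KO over WT, against annotated transcript length (log scale): the line and grey band are the median and the interquartile range of the tested genes in 10 bins of equal number, and the points are the 10 genes, filled where adjusted p is below 0.05. The bin medians run from 0.28 at the shortest to -0.38 at the longest transcripts. Abca1 differs from the median of its bin by -0.13 and Soat1 by 0.80, or by 0.37 at its short transcript (cross).

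Both droplet coat genes rose. Plin2, the main perilipin of steroid-making cells outside fat, stood at 210.7, 212.0, 193.6 and 194.3 CPM in WT libraries 1 to 4 and at 245.4, 268.5 and 297.4 CPM in KO libraries 1 to 3. All KO values exceeded all WT values, with KO library 1 the closest to WT. The log2 fold change was 0.42 (SE 0.0906, edgeR adjusted p = 0.00376), or 0.28 corrected (edgeR adjusted p = 0.00693). Plin3, which coats small droplets and also binds endosomal carriers, had 100.2, 95.1, 86.1 and 92.5 CPM in WT and 111.8, 124.0 and 126.9 CPM in KO. The groups again did not overlap. Its change was 0.37 (SE 0.0888, edgeR adjusted p = 0.00636), or 0.44 corrected (edgeR adjusted p = 0.0012). For KO library 1 alone, Plin2 stood at 0.27 (edgeR adjusted p = 0.0789) and Plin3 at 0.26 (edgeR adjusted p = 0.143).

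Ratios of counts within a library do not depend on scaling between libraries, and 6 were compared. They are not corrected for the trend on transcript length. The Plin2 to Plin3 ratio was 2.17 ± 0.0806 in WT (SD, n = 4) and 2.23 ± 0.0958 in KO (SD, n = 3), so the 2 coat genes kept nearly the same proportion in uncorrected counts. The corrected log2 fold changes were 0.28 for Plin2 and 0.44 for Plin3. The Soat1 to Lipe ratio ran from 42.2 to 58.7 in WT and from 49.0 to 69.8 in KO. The Abca1 to Abcg1 ratio was 15.3 ± 2.08 in WT and 14.2 ± 0.967 in KO, and the Lipa to Lipe ratio 7.27 ± 0.814 and 6.25 ± 1.44 (SD, n = 4 and 3). These ratios overlapped between the groups. The Npc1 to Npc2 ratio was 0.0817 in KO library 1 and 0.0431 and 0.0520 in KO libraries 2 and 3, against 0.0666 to 0.0789 in WT. Star, whose product carries cholesterol into mitochondria, set against its relative Stard3 gave 0.708 to 1.02 in WT and 1.11 to 1.34 in KO, the one ratio of the 6 without overlap. In the exact two-sided permutation test over the 7 libraries that ratio had p = 0.0571, the smallest that 35 regroupings allow, and p = 0.343 after adjustment over the 6 ratios, while the others had p of 0.286 to 0.457.

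Levels between genes were compared as counts per kb of exon, scaled to the same sum in each library. In WT, Npc2 led with 317.6 ± 7.47, followed by Plin2 with 182.9 ± 10.5, Plin3 with 78.3 ± 5.61 and Soat1 with 76.3 ± 2.96 (SD, n = 4). Plin3 and Soat1 did not differ beyond their spread. Lipa (15.4 ± 0.510), Abca1 (13.9 ± 0.587), Stard3 (11.5 ± 1.58) and Npc1 (11.2 ± 1.01) formed a lower group in which Stard3 and Npc1 did not differ beyond their spread. Lipe (2.46 ± 0.353) and Abcg1 (1.31 ± 0.259) were lowest. In KO the order was the same apart from Soat1, at 97.2 ± 7.05, level with Plin3 at 95.9 ± 2.73, and Abca1, which moved from rank 6 to rank 8 at 9.31 ± 1.87 (SD, n = 3). The order depends on the length used: with the shortest principal transcript Soat1 stood at 164.5 ± 6.28 in WT, above Plin3 at 52.4 ± 3.78, and Abca1 at 9.02 ± 0.393 was already at rank 8.

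**Figure D4:**
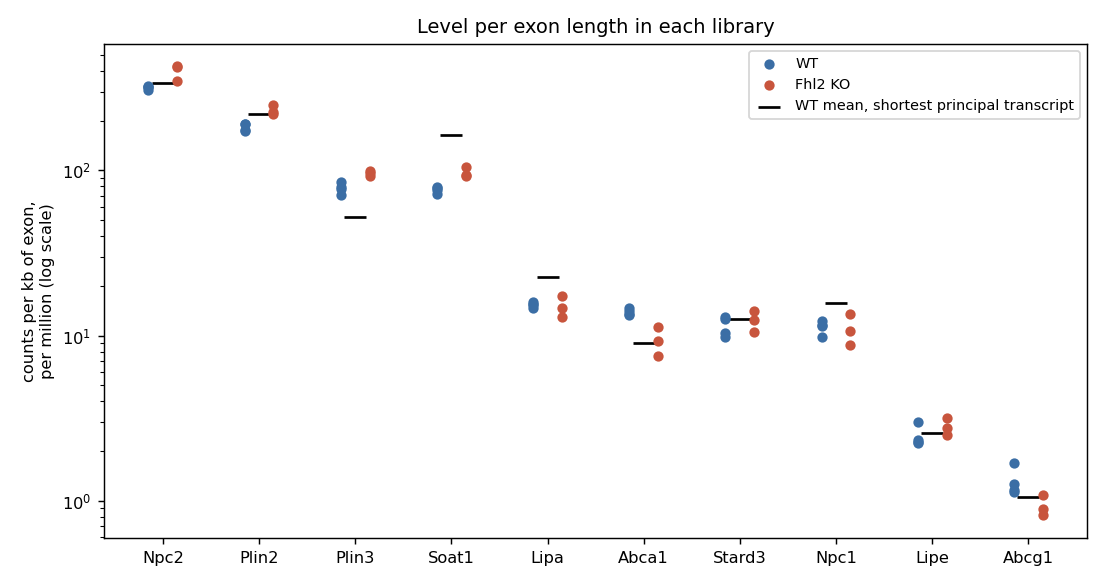
Level of each gene per kb of exon, scaled to the same sum in each library (log scale), in each WT (blue) and Fhl2 KO (red) library, ordered by the WT mean, with the WT mean for the shortest principal transcript as a dash. Npc2 and Plin2 lead, and Lipe and Abcg1 lie lowest at 2.46 and 1.31 in WT.

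Other genes of cholesterol and droplet handling were read in the same fit to place the 10 genes, which belong to some of these lists. In that fit 13.5% of all genes tested were higher and 15.6% lower, and in the corrected fit 12.6% were higher and 11.0% lower. Of 15 tested droplet coat and assembly genes, 6 rose and none fell. Besides Plin2 and Plin3 these included Bscl2, the seipin gene of droplet formation (0.46, SE 0.113, edgeR adjusted p = 0.00749), and Hsd17b11, an enzyme found on droplets (0.44, SE 0.0907, edgeR adjusted p = 0.00288). Plin1, the perilipin of adipocytes, did not pass the low-count filter. The droplet list had a median change of -0.05. Corrected, 5 of its genes rose and none fell, and with the shortest principal transcript 6 rose and 1 fell. Of 11 tested genes of neutral lipid hydrolysis, 1 rose and 1 fell. They were Hilpda, an inhibitor of droplet lipolysis (0.46, edgeR adjusted p = 0.00951), and Nceh1, a cholesterol ester hydrolase (-0.34, edgeR adjusted p = 0.0197). Corrected, these were 0.24 and -0.16 and did not pass (edgeR adjusted p = 0.0856 and 0.176), and none of the list passed without KO library 3. Nceh1 also did not pass with the replicate block or without WT library 3 or 4 (edgeR adjusted p = 0.0645 to 0.116). The 1 corrected call of the list was a fall of Abhd6 (-0.40, edgeR adjusted p = 0.0279), which did not pass uncorrected.

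Of 27 tested lysosomal genes, 10 rose and none fell, with a median change of 0.22. The protease gene Ctsb averaged 311.0 ± 13.0 CPM across WT and 458.2 ± 46.7 CPM across KO libraries (SD, n = 4 and 3), and Ctsl, another protease gene, and the proton pump subunit gene Atp6v0d1 rose by 0.42 and 0.45 on the log2 scale. The count was 14 higher and 1 lower when corrected. It was 15 higher when scaled by library totals, 17 without KO library 1 and 4 without KO library 3. The all-gene calls on the higher side moved as well. In the same order they were 2630 of 15798 genes tested, 3331 of 16185 and 662 of 16203. Of 28 sterol carriers of the START and oxysterol-binding families and their contact sites, 5 rose and 6 fell, or 8 and 2 when corrected. Stard5 rose by 0.50 (SE 0.1005, edgeR adjusted p = 0.0022), and Tspo, an outer mitochondrial membrane protein gene, by 0.50. Corrected, Tspo stood at 0.19 and did not pass (edgeR adjusted p = 0.0749). Osbpl6 fell by 0.48, and stood at -0.07 when corrected (edgeR adjusted p = 0.693).

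Of 14 tested lipoprotein uptake genes, 7 fell, 1 rose and 6 did not pass, with a median change of -0.44. Corrected, 5 fell, 2 rose and 7 did not pass, and the median was -0.13. The rise in the uncorrected fit was that of Scarb1, the receptor for high-density lipoprotein ester, at 249.2 ± 15.1 CPM in WT and 436.6 ± 25.1 CPM in KO (log2 fold change 0.81, corrected 0.84; SD, n = 4 WT and 3 KO). Among the falls, the scavenger receptor gene Cd36 averaged 31.1 ± 1.27 CPM across WT and 21.8 ± 1.99 CPM across KO libraries (log2 fold change -0.51, corrected -0.52; SD, n = 4 and 3). Vldlr stood at -0.55 (edgeR adjusted p = 0.00226) and at -0.17 when corrected (edgeR adjusted p = 0.0932). Of 15 tested efflux and lipoprotein genes, 2 rose and 2 fell, the falls being Abca1 and its relative Abca9 (-0.78, corrected -0.46). One of the rises was Apoa1 (0.48, edgeR adjusted p = 0.0341), the gene of the acceptor of ABCA1, which passed in 7 of 18 alternatives. It did not pass when corrected (0.18, edgeR adjusted p = 0.364), for KO library 1 alone, or when any of WT libraries 1, 2 and 4 and KO libraries 2 and 3 was left out, with edgeR adjusted p = 0.0542 to 0.176.

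Of 23 regulators of sterol sensing, among them Abca1 and Abcg1 as targets of the liver X receptors (LXR), 1 rose and 5 fell. Pparg, a nuclear receptor of lipid storage, fell, at 60.7 ± 1.51 CPM across WT and 35.9 ± 4.67 CPM across KO libraries (SD, n = 4 and 3; log2 fold change -0.76, edgeR adjusted p = 7.08e-05, corrected -0.84). Nr5a1, which encodes steroidogenic factor 1, rose by 0.35 (SE 0.0927, edgeR adjusted p = 0.0106), but did not pass with KO library 3 left out, at an edgeR adjusted p = 0.0775, or for KO library 1 alone. The following genes were chosen after their values were seen. Mylip, another LXR target, fell by 0.76 (edgeR adjusted p = 0.0124, corrected -0.74), and did not pass in the same settings, with edgeR adjusted p = 0.0920 when KO library 3 was left out. The LXR genes themselves did not pass, with 0.71 for Nr1h3 (edgeR adjusted p = 0.0543) and 0.21 for Nr1h2 (edgeR adjusted p = 0.111). Nr1h3 passed with DESeq2 (adjusted p = 0.0418) and with library totals (edgeR adjusted p = 0.0423), and Nr1h2 with voom (limma adjusted p = 0.00891) and without KO library 1 (edgeR adjusted p = 0.00798).

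**Figure D5:**
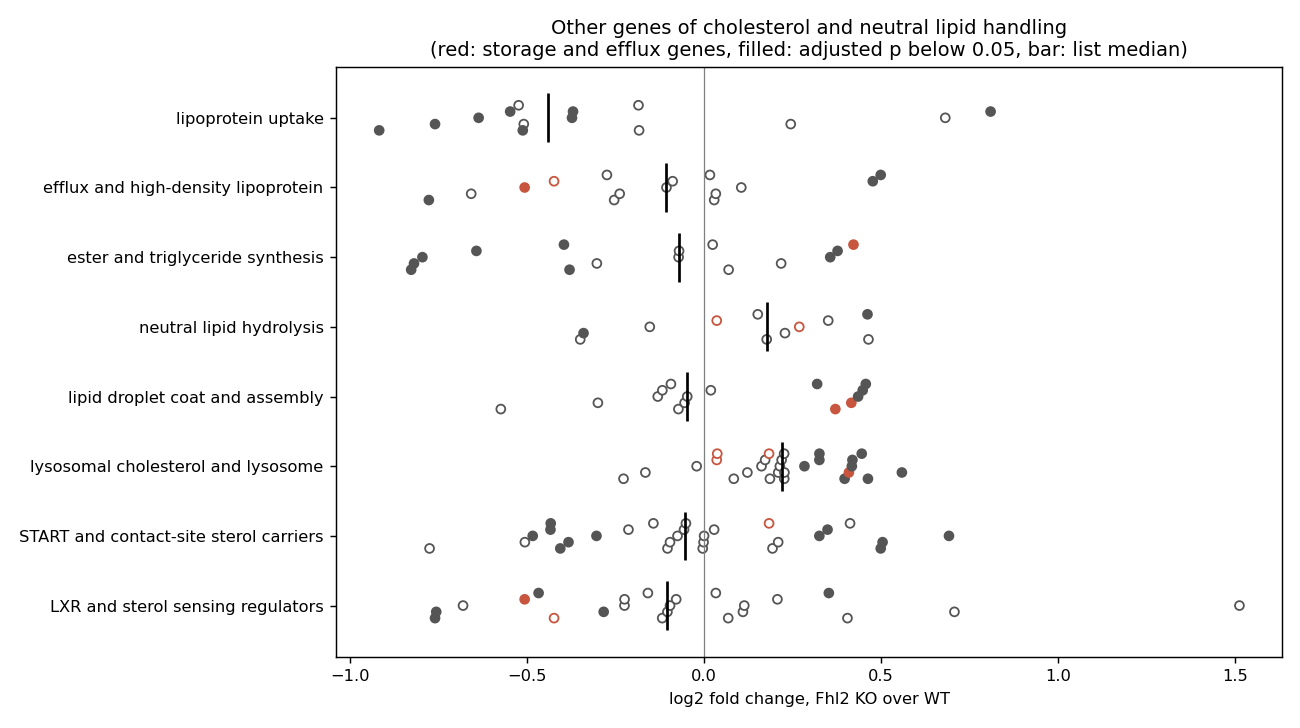
Log2 fold change, Fhl2 KO over WT, of the tested genes of 8 lists of cholesterol and neutral lipid handling, with the storage and efflux genes in red, genes past adjusted p 0.05 filled and the list median as a bar. Medians run from -0.44 for lipoprotein uptake to 0.22 for lysosomal genes, and a gene may stand in more than 1 list.

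Macrophages and adipocytes also use many of the 10 genes. Calls of cell type markers are from the uncorrected fit, where 13.5% of all genes tested were higher and 15.6% lower. The summed level of 16 macrophage markers was 28.3 to 30.5 CPM in WT and 27.8 to 32.5 CPM in KO, with Cd163 at 0 in all libraries, and none of the 12 tested passed. Of 8 adipocyte markers, Adipoq, Lep, Cidec and Cfd were at 0 in all libraries and the sum did not exceed 3.64 CPM. Granulosa markers (12 genes) summed to 4997 to 5670 CPM in WT and 4384 to 5242 CPM in KO, with 6 of 11 tested lower and 3 higher. Theca and interstitial markers (9 genes) summed to 6387 to 6972 CPM in WT and 8523 to 9120 CPM in KO, with 3 of 5 tested higher and 1 lower. Aldh1a1 alone averaged 7071 CPM over all libraries and made up most of that sum. Lhcgr, Cyp11a1 and Star stand in both this list and the luteal one, so the readings of these lists are not separate. Surface epithelium markers (8 genes) summed to 109.6 to 125.7 CPM in WT and 139.3 to 181.6 CPM in KO, with 5 of 8 tested higher. Luteal markers (9 genes) summed to 1129 to 1202 CPM in WT and 2612 to 2867 CPM in KO, with 7 of 8 tested higher. Stroma and fibroblast markers (8 genes) summed to 364.5 to 422.2 CPM in WT and 118.0 to 163.7 CPM in KO, with 5 of 7 tested lower. The sum of 8 lung markers was at most 0.458 CPM in WT and 11.1, 25.6 and 1.252 CPM in KO libraries 1 to 3. Of these markers, 2 of 3 tested were higher, but 0 passed with voom. The part of these lists in the changes of the 10 genes was not tested, and in bulk samples fewer cells of a type and less RNA per cell cannot be told apart.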

How the data were processed

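The deposited values were counts of reads per gene symbol, 1 column per library, not normalized by the authors. Per the submitters' processing notes, the tools were HISAT2 2.2.1, featureCounts 1.6.4, DESeq2 1.28.1, Cufflinks 2.2.1, fastp and SAMtools, on build mm10. The kit was stranded per the labels, but for the counting step the strand setting and annotation release were not given in the sources used, so antisense reads may not be separated. The labels do not say whether libraries came from separate animals, and the p-values then reflect library-to-library spread, which may be technical. No libraries were duplicates (chi-square per degree of freedom at least 9.72).

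The test was edgeR's quasi-likelihood test (edgeR 4.0.16, R 4.3.3, robust, TMM scaling, filterByExpr minimum count 10), adjusted by Benjamini-Hochberg over the 15798 genes tested. Intervals (95%) are not adjusted. A floor of 3 counts is 0.0594 to 0.0772 CPM and covers counting error only. The correction entered each library's spline trend (4 degrees of freedom) on length and GC content, from GENCODE M21 transcripts and fitted on genes above 1 CPM, as an offset. It covered 15574 genes (98.6%). Alternatives were DESeq2 1.42.0, voom quality weights (limma 3.58.1), other scalings and filters, left-out libraries and a replicate block. The fit of 6 libraries without the block is the same as the fit without WT library 4, and counts of alternatives include it under both names. The correction with the shortest principal transcript was added after seeing the data. The edgeR, voom, DESeq2 and correction steps were tested on simulated data. There the length trend was equal in all KO libraries, unlike in the real ones, and no limit on false calls was set for DESeq2.

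The 10 genes, the lists and the alternatives were chosen with earlier results of these data known. Named genes were Fhl2, the 10 genes and, from each list, up to 4 genes with the smallest p. Some genes that this rule names are not reported here.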

Additional observations from a re-analysis of the deposited data

Results flagged for a closer look

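Lipe in the WT group was far from even: WT library 4 stood at 5.57 CPM and the other 3 at 4.14 to 4.31 CPM, so that the gap to the nearest library was 0.882 of the group's range, above Dixon's 95% critical value for 4 samples. Of 16 gene levels and ratios examined in this way this was the only one. Chance gives such a gap in about 1 in 20 for each item, so 1 among 16 can arise by chance. The items also share genes.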

How the results depend on the processing

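Of the 10 genes, Soat1 kept its direction and call in all 19 alternatives. Npc2 lost its call without KO library 3 and for KO library 1 alone, and Plin2 and Plin3 for KO library 1 alone. Abca1 lost it in that setting and under the 3 corrections. The number of the 10 genes called was 4 to 5 with 1 library left out. In the same fits the calls over all genes differed widely. They ran from 1657 of 16203 genes tested without KO library 3 to 6740 of 16185 without KO library 1. Reversals were in genes not past the threshold: Lipa without KO library 1 (-0.0175), and Npc1 with voom (-0.0265), without WT library 3 (-0.0176) and without KO library 1 (-0.0815). Among the settings with 1 library left out, both were highest without KO library 2, 0.124 for Lipa and 0.170 for Npc1. The cause was not tested.

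For KO library 1 alone, with fewer samples, the calls were 781 over all genes, 4 for uptake, 0 for efflux, 4 for ester synthesis, 0 for hydrolysis, 2 for droplet, 1 for lysosomal, 1 for sterol carrier and 1 for sensing genes. With 1 library left out they ranged from 1657 to 6740 over all genes, 5 to 9 for uptake, 3 to 6 for efflux, 4 to 9 for ester synthesis, 0 to 4 for hydrolysis, 4 to 7 for droplet, 4 to 17 for lysosomal, 4 to 16 for sterol carrier and 2 to 10 for sensing genes. With voom they were 4 for hydrolysis, 16 for lysosomal and 10 for sensing genes. Hydrolysis genes had 1 call under each of the 3 corrections, ester synthesis genes 5 with length alone, and sterol carriers 7 with length alone and 6 with the shortest principal transcript. A filter of 10 CPM left 2 efflux calls, and Abcg1 and Lipe were not tested under it. With 1 library left out, the low ends came without KO library 3 (for efflux also without others). The high ends of the all-gene count and of every list came without KO library 1. All-gene counts were also low without WT library 3 (2994) or 4 (2960).

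The replicate numbers gave no sign of pairing the libraries (correlation of deviations -0.0324 to 0.0326 for equal numbers, -0.0850 to 0.0994 for others). With the number as a block on 6 libraries, 3301 genes and 5 of the 10 were called, and 1 hydrolysis gene. Without the block those libraries gave 2960 genes, 5 of the 10 and 1 hydrolysis gene, which is the fit without WT library 4. No ratio changed sign under the block, a pseudocount of 1 or a left-out library, and the block gave a log2 difference of 0.58 for Star to Stard3.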

Other observations

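In the ester and triglyceride synthesis list, which holds Soat1, more genes fell than rose. Of 15 tested, 3 rose and 6 fell, where 13.5% of all genes tested were higher and 15.6% lower. When corrected, 2 rose and 4 fell, where 12.6% of all genes were higher and 11.0% lower. The uncorrected median change was -0.07, but -0.41 without KO library 1, -0.44 with voom and 0.14 for KO library 1 alone. The desaturase gene Scd2 fell, with 1989 ± 137 CPM across WT and 1146 ± 190 CPM across KO libraries (SD, n = 4 and 3; log2 fold change -0.79, edgeR adjusted p = 0.000106, corrected -0.55). Lpin2, a phosphatidate phosphatase gene, stood at 40.6, 38.1, 41.6 and 41.4 CPM in WT and 29.3, 18.3 and 21.3 CPM in KO (-0.82, corrected -0.56). The acyl-CoA synthetase gene Acsl3 fell by 0.64 (corrected -0.53).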
